A study of Homo sapiens with 2 samples.

Results

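The BCL2 family guardians and the inhibitor of apoptosis proteins keep a cell alive by blocking the caspase cascade, and 8 of their genes are described here: BCL2, BCL2L1, BCL2L2, MCL1, BCL2A1, XIAP, BIRC2 and BIRC3. The members were all probes that the platform annotation assigns to 1 of these symbols, whatever their values. There were 13 such probes, of 7 genes among the 20046 genes that the annotation names and of 47322 probes on the array. The annotation used here listed no probe under BIRC3, which is therefore not analysed.

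Cells bearing the label Jurkat, the name of an established human T lymphoblast line, were kept for 24 hours either with Me6TREN or with phosphate-buffered saline (PBS). Me6TREN is a small metal-binding amine, and no source used here states its dose. Both groups shared the same serum-containing RPMI medium, and each was measured on 1 Illumina HT12 whole-genome array. Because a group is 1 array, no test of a difference was possible, and values carry neither an error nor a replicate check.

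In the mitochondrial pathway of apoptosis, BCL2, BCL-XL (from BCL2L1), BCL-W (from BCL2L2), MCL1 and A1 (from BCL2A1) hold back the pore-forming proteins BAX and BAK. BH3-only proteins such as BIM, NOXA and PUMA neutralise these guardians. Downstream, XIAP binds and blocks active caspases, while cIAP1 (from BIRC2) and cIAP2 (from BIRC3) are ubiquitin ligases of tumour necrosis factor receptor complexes that also restrain non-canonical NF-kB signalling. MCL1 is known for a short-lived protein and messenger RNA, and BCL2 for its role in lymphoid cancers.

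A probe was called detected at a deposited detection p-value under 0.01, the share of the array's negative controls that were at least as bright. That corresponded to a lowest detected signal of 333.4 on the PBS array and 350.5 on the Me6TREN array. The PBS array detected 15363 probes and the Me6TREN array 13656. Of the 13 survival gene probes, 9 were detected on both arrays, 3 on the PBS array alone and 1 on neither, with 13 to 32 beads behind each value. B cell markers went against the label of the cells: both arrays detected 6 of the 7 markers of B cells that had a probe, among them CD79A at signals of 32313 and 33455, against 2 of 12 markers of T cells. Of the T cell markers, CD247 (1219 with PBS and 726.4 with Me6TREN) and CD28 (484.8 and 540.7) were detected on both arrays. CD3D (587.4 with PBS), CD3G and LAT were detected on the PBS array alone, CD2 and ZAP70 on the Me6TREN array alone, and CD3E, LCK, CD5, CD7 and TRAT1 on neither, so at least 1 array detected 7 of the 12. PAX5 was the B cell marker not detected. The cells are called here only by their label. In such bulk RNA, fewer cells of a type and less RNA per cell cannot be told apart.

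**Figure D1:**
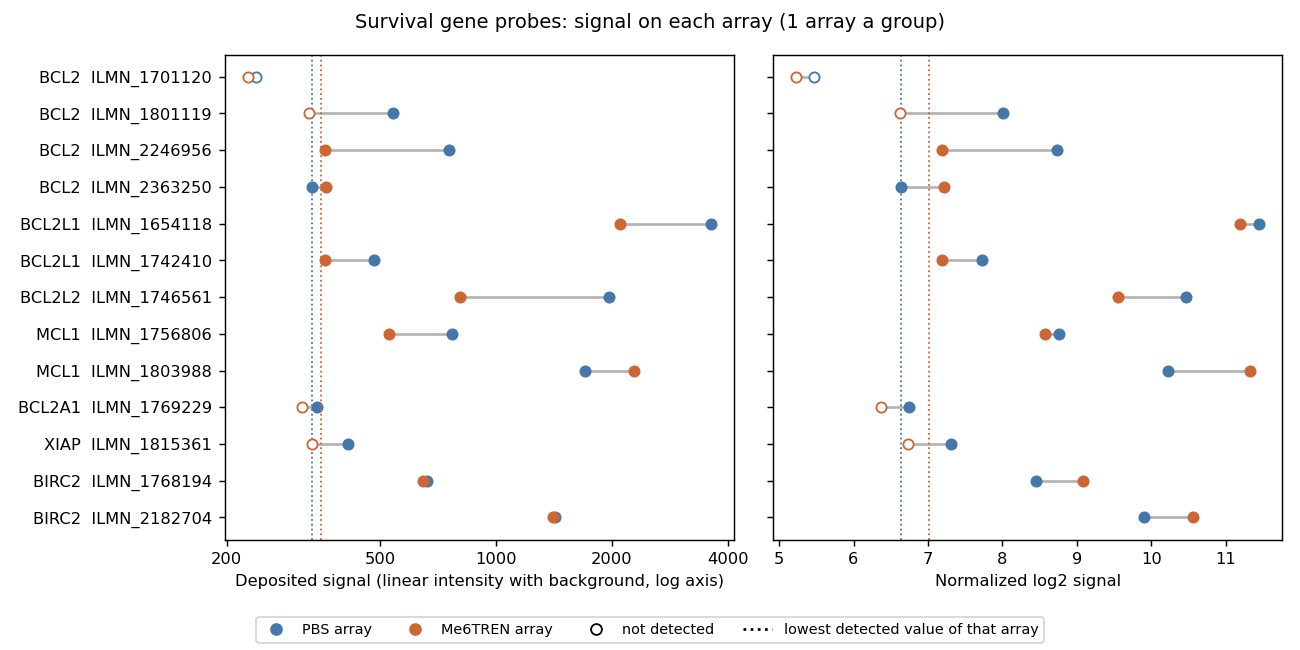
Signal of each of the 13 survival gene probes on the PBS array (blue) and the Me6TREN array (orange), as deposited on a log axis (left) and after normalization on the log2 scale (right). Open circles were not detected and dotted lines mark the lowest detected value of each array. Within each of the 2 BIRC2 probes, the points of the 2 arrays nearly coincide on the left and separate on the right. The BCL2 probes ILMN_1801119 and ILMN_2246956 are lower with Me6TREN in both panels.

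Sequences upstream of an annotated transcription start are given for 2 of the genes. They are BCL2, whose 2 alpha transcript probes had the lowest ratios of the family, and BIRC2, whose deposited signals were nearly equal on both arrays. Each run is the 250 bases before an annotated start in RefSeq, build GRCh38.p14, printed in the direction of the gene. Capitals mark matches to the AP-1 motif TGANTCA, the cyclic AMP response element TGACGTCA or the GC box GGGCGG on either strand.
BCL2, chr18:63319770-63320019, minus strand: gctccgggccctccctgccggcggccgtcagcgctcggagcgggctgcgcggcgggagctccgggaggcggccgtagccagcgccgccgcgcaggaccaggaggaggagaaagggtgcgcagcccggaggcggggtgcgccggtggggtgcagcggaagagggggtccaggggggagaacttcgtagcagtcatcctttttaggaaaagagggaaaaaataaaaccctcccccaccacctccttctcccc
BIRC2, chr11:102347124-102347373, plus strand: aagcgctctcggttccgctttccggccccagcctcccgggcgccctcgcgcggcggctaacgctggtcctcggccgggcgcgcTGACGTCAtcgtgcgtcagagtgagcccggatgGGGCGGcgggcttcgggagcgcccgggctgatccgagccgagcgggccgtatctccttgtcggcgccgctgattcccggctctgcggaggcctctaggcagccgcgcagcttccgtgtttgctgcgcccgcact
The BCL2 window held none of the 3 motifs. The BIRC2 window, which belongs to the downstream of its 2 annotated starts, held 1 cyclic AMP response element and 1 GC box. They begin 167 and 134 bases before the start. The window of the upstream BIRC2 start held none of the 3 motifs in full, as it ends within that cyclic AMP response element. Among all 35116 windows of this length in the table, 6.57% held TGANTCA, 1.65% TGACGTCA and 42.6% GGGCGG. Of the 10 windows that the table gives for 6 of the 8 genes, 0 held TGANTCA, 1 held TGACGTCA and 3 held GGGCGG. The heat shock motif GAANNTTC (5.78% of all windows) and the E-box CACGTG (6.34%) matched in 0 of the 10. No element overlapped another within a window. Windows of 1 gene can overlap, and the same XIAP GC box was counted in 2 windows. A match describes letters in a window and no match says nothing about the factor. The table gave no window for MCL1 or BCL2L2.

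BCL2 itself gave readings that depended on the probe. Its 4 probes fall into a pair assigned to the alpha transcript, which encodes the membrane-anchored protein, and a pair assigned to the beta transcript, which encodes a form without that anchor. The alpha probe ILMN_2246956 had a deposited signal of 753.9 on the PBS array and 360.7 on the Me6TREN array. After background correction and quantile normalization these were 8.73 and 7.19 on the log2 scale, a log2 ratio of −1.54 or 2.91-fold lower with Me6TREN. The Me6TREN value lay just above the lowest detected signal of its array.

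The other alpha probe, ILMN_1801119, had signals of 541.6 with PBS and 327.4 with Me6TREN, the latter not detected (detection p-value 0.0299). Its measured log2 ratio was −1.39. Against the lowest detected value on the Me6TREN array this is a bound of at least 1.99-fold lower after this normalization. Over 7 processing settings the measured log2 ratio of this probe ran from −1.79 to −0.57. Both alpha probes were therefore lower on the Me6TREN array. After the normalization used here their measured log2 ratios differed by 0.15.

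The beta probe ILMN_2363250 went the other way, with signals of 333.8 with PBS and 362.4 with Me6TREN and a log2 ratio of 0.57. Both of its signals lay close to the lowest detected signals of 333.4 and 350.5. Its log2 ratio and that of ILMN_2246956 differed by 2.11. Among 2807 pairs of probes of 1 gene detected on both arrays, 2.07% were at least as far apart. The last probe, the beta probe ILMN_1701120, had signals of 238.9 and 226.8 and was detected on neither array, so it gives no ratio.

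BCL2L1, the source of BCL-XL, was lower by both of its probes, but by less than 2-fold. Its bright probe ILMN_1654118 had signals of 3611 with PBS and 2098 with Me6TREN. On the normalized log2 scale the values were 11.45 and 11.19, a log2 ratio of −0.26. The dim probe ILMN_1742410 had signals of 482.7 and 360.4 and a log2 ratio of −0.54. Its Me6TREN signal lay just above the lowest detected signal of that array, 350.5. The pair differed by 0.28, and 56.0% of all same-gene pairs were at least as far apart.

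BCL2L2, the source of BCL-W, had 1 probe, ILMN_1746561. Its signal was 1964 with PBS and 805.9 with Me6TREN, which is 41.0% of the PBS signal and the lowest such share among the 13 probes. After normalization the values were 10.47 and 9.55, a log2 ratio of −0.92 or 1.89-fold lower. BCL2L2 thus fell short of 2-fold after quantile normalization, although the deposited signals differed by more than 2-fold. The readthrough gene BCL2L2-PABPN1 shares exons with BCL2L2 and had no probe of its own in the annotation, so signal from the 2 cannot be told apart.

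The 2 probes of MCL1 disagreed. ILMN_1803988 had signals of 1702 with PBS and 2279 with Me6TREN and gave a log2 ratio of 1.11, or 2.16-fold higher. ILMN_1756806, which the annotation assigns to the same transcript, had signals of 767.0 and 528.8 and a log2 ratio of −0.18. Both were detected on both arrays, so neither reading rests on a value at the detection limit. Their log2 ratios differed by 1.29, and 8.16% of all same-gene pairs were at least as far apart. The array therefore gives no single direction for MCL1.

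BCL2A1, the source of A1, sat at the detection limit. Its probe ILMN_1769229 had signals of 343.9 with PBS, which was detected, and 312.9 with Me6TREN, which was not (detection p-value 0.0675). The PBS value lay below the lowest detected normalized value of the Me6TREN array, so no fold is given.

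Among the inhibitor of apoptosis genes, XIAP was detected on the PBS array alone. Its probe ILMN_1815361 had signals of 413.8 with PBS and 333.0 with Me6TREN (detection p-value 0.0208), a measured log2 ratio of −0.58 and a bound of at least 1.22-fold lower. The bound is that of the normalization used here. Over 7 processing settings the measured log2 ratio ran from −0.97 to −0.21.

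BIRC2, the source of cIAP1, had 2 probes that gave the closest agreement of the family. ILMN_2182704 had signals of 1419 with PBS and 1410 with Me6TREN, and ILMN_1768194 had 660.9 and 647.5. After normalization the log2 ratios were 0.65 and 0.63, a difference of 0.02 that 96.5% of all same-gene pairs exceeded or matched. These ratios of 1.57-fold and 1.55-fold higher arose with nearly equal deposited signals. A signal of 650 on both arrays was given a log2 difference of 0.67 by the background correction and normalization, and a signal of 1400 one of 0.66. As deposited, the probes detected on both arrays had a median log2 ratio of −0.34, and quantile normalization sets both arrays to 1 distribution. BIRC2 was thus higher relative to other probes and not in deposited signal.

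**Figure D2:**
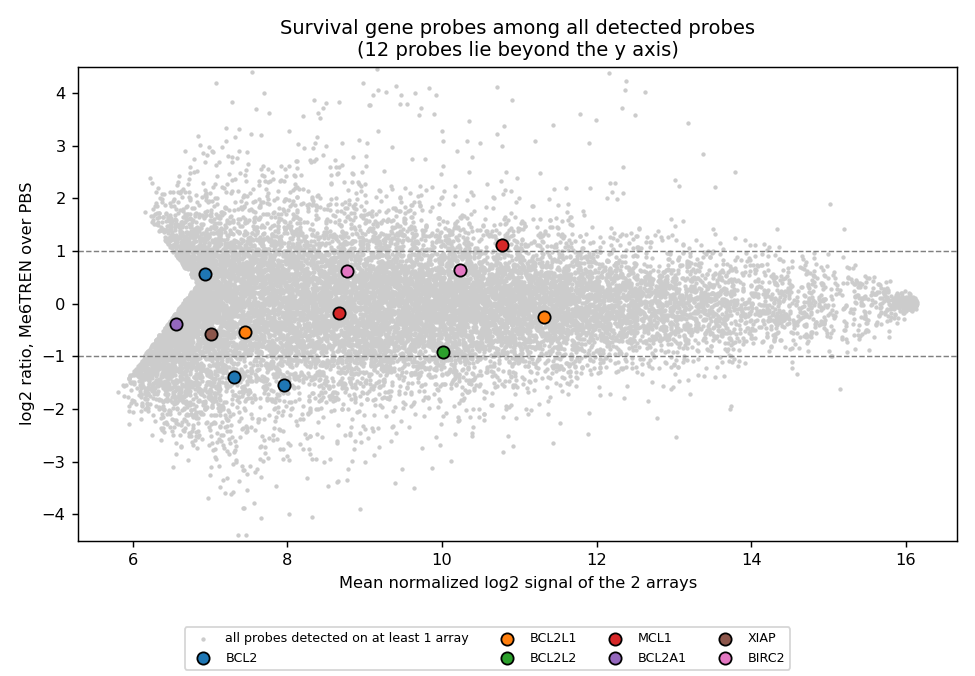
log2 ratio of Me6TREN over PBS (y axis) against mean normalized log2 signal (x axis) for the 16210 probes detected on at least 1 array (grey) and the 12 survival gene probes among them (coloured by gene). Dashed lines mark 2-fold. The MCL1 probe at 1.11 and the BCL2 alpha probes at −1.39 and −1.54 lie beyond the dashed lines as measured, within the grey cloud of probes of like signal.

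Across the family, 1 of the 12 detected probes was at least 2-fold higher (MCL1 ILMN_1803988) and 1 at least 2-fold lower (BCL2 ILMN_2246956), counting probes detected on 1 array by their bound. Over all 16210 probes that at least 1 array detected, 8.84% passed 2-fold upward and 8.37% downward. The family's shares of 8.33% each way were near this background and are not a result about the family. The median log2 ratio of the 12 probes was −0.32 as measured, against −0.05 over all detected probes. With bounds the medians were −0.22 and 0. At 1.5-fold, 3 of the 12 were higher (both BIRC2 probes and MCL1 ILMN_1803988) and 3 lower (both BCL2 alpha probes and BCL2L2), against 20.2% and 18.7% of all detected probes. As measured, 8 of the 12 probes were lower with Me6TREN, which is 66.7% against 52.7% of all detected probes.

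Probes of like mean signal varied widely, and 0 of the 12 survival gene probes lay outside the central 95% of their bin when all detected probes were split into 10 bins of mean signal. For BCL2 ILMN_2246956 that range ran from −2.11 to 2.09 over 1621 probes. For MCL1 ILMN_1803988 it ran from −1.45 to 1.51, and for BCL2L2 from −1.62 to 1.57. The ratios named above are therefore of a size that many probes of the same brightness showed between these 2 arrays.

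Higher and lower calls were balanced differently under different scalings. With quantile normalization 51.4% of the probes past 2-fold were higher. With median centring over the probes detected on both arrays 64.6% were higher, with the authors' series matrix values 14.6%, and with median centring over all probes 10.95%. The median log2 ratio of all detected probes was −0.05, 0.14, −0.33 and −0.54 in the same order. Ratios were therefore also taken relative to that median under the 7 settings used. On this relative log2 scale BCL2L2 ran from −1.18 to −0.71, BCL2 ILMN_2246956 from −1.82 to −0.75 and BCL2 ILMN_1801119 from −1.34 to −0.53. MCL1 ILMN_1803988 ran from 0.94 to 1.16, and the BIRC2 probes from 0.37 to 0.70. Both BCL2L1 probes, XIAP and MCL1 ILMN_1756806 lay below the median of all probes under all 7, and BCL2 ILMN_2363250 above it. BCL2A1 lay below it under 6 of the 7 and above it with the series matrix values, where both of its values were at or under the floor set at the detection limit.

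**Figure D3:**
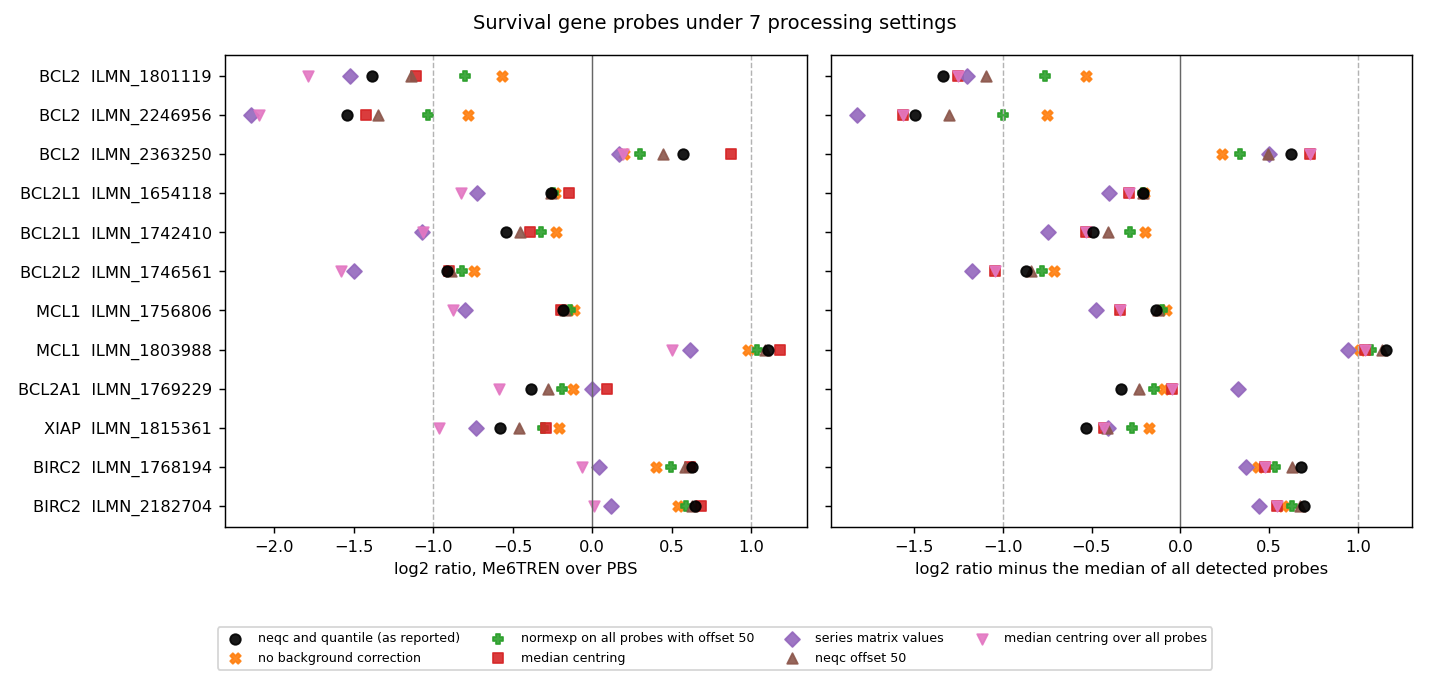
log2 ratio of each of the 12 detected survival gene probes under 7 processing settings, as computed (left) and minus the median of all 16210 detected probes (right), on the log2 scale. Dashed lines mark 2-fold. The BCL2 alpha probes and BCL2L2 lie left of 0 and MCL1 ILMN_1803988 right of 0 under all 7 settings, while BIRC2 ILMN_1768194 reaches −0.06 with median centring over all probes.

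The partners of these proteins were read from 8 lists of 70 genes, each represented by its brightest detected probe, and the arrays detected 53 of the 65 with a probe. The lists were chosen with earlier results of these data known. Their counts beside the shares of all detected genes are therefore a description and no test of an excess. Of these, 6 (11.3%) were past 2-fold upward and 9 (16.98%) downward, against 6.74% and 9.94% of 9410 detected genes. At 1.5-fold the counts were 11 and 18, against 16.5% and 21.9% of all detected genes. Their median log2 ratio with bounds was −0.15, against −0.02 for all detected genes. The genes named below were taken by the size of their measured ratio, up to 3 per list. Those marked as read afterwards complete a count.

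Among the pro-apoptotic members of the BCL2 family, 4 of 10 detected genes were higher by 2-fold or more and 3 lower. Over all detected genes the shares were 6.74% and 9.94%. Without background correction 2 were higher and 1 lower, against 3.10% and 4.63% of all detected genes. With the series matrix values 2 were higher and 3 lower, against 3.01% and 24.8%. BCL2L11, the source of BIM, had signals of 1232 with PBS and 6168 with Me6TREN and a log2 ratio of 3.09, with 3.28 and 3.82 by its other detected probes. HRK, a BH3-only protein, had signals of 564.9 and 1183 and a log2 ratio of 2.16. Both ratios were larger than that of any survival gene probe, and they stayed at or above 2.60 and 1.51 under all 7 settings.

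BAX, the pore former, had signals of 5198 and 1741 and a log2 ratio of −1.16 by its brightest probe but 0.49 by another. Read afterwards, the BH3-only genes PMAIP1 (the source of NOXA) and BBC3 (the source of PUMA) were higher, with log2 ratios of 1.05 and 1.02, and BIK and BID lower, both with −1.02. These 4 lay within 0.05 of the 2-fold line, and each was on the other side of it under at least 1 setting. The other detected probes of BID had measured log2 ratios of −0.82 and 1.02, the latter detected on the Me6TREN array alone. PMAIP1 had 0.72 by its other detected probe, which is under 2-fold.

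Among other relatives of BCL2, 2 of 3 detected genes were at least 2-fold lower, against 9.94% of all detected genes. The count was 1 without background correction or with normexp on all probes, and 0 with median centring over the probes detected on both arrays. BCLAF1, a nuclear protein that binds BCL2, had a log2 ratio of −1.20, with −1.52 and 0.14 by its other probes. BCL2L13, an outer mitochondrial membrane protein, had −1.03. BCL2L12 had −0.03.

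Other inhibitor of apoptosis genes showed no ratio past 2-fold. Of 5 with a probe, BIRC5, the source of survivin, and the giant family member BIRC6 were detected, with log2 ratios of −0.07 and 0.10. Among the antagonists of these proteins, 0 of 5 passed 2-fold either way. For SEPTIN4, which only the Me6TREN array detected, the bound was at least 1.99-fold higher after this normalization. Deposited values of SEPTIN4 were 307.3 with PBS and 396.7 with Me6TREN, against lowest detected signals of 333.4 and 350.5. Its measured log2 ratio ran from 0.47 to 1.59 over the 7 settings, so the bound is that of the normalization used here. DIABLO, the mitochondrial protein that displaces caspases from XIAP, had a log2 ratio of −0.66, with −1.11 and −0.13 by its other probes, and XAF1 had 0.57 by its brightest probe and −0.65 by another. The brightest XAF1 probe had deposited signals of 1098 with PBS and 1030 with Me6TREN, and its sign changed with the setting (−0.11 to 0.57).

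The apoptosome and caspase genes were lower without exception in their brightest probes, with a median log2 ratio of −0.98 over 6 detected genes. Of these 3 were at least 2-fold lower, against 9.94% of all detected genes. CASP8, the initiator caspase of death receptors, was seen on the PBS array alone, with a bound of at least 2.23-fold lower after this normalization. Its measured log2 ratio ran from −2.84 to −1.02 over the 7 settings. APAF1, the scaffold of the apoptosome, had a log2 ratio of −1.20, and CYCS, the cytochrome c that assembles it, −1.05. With no background correction 0 of the 6 were at least 2-fold lower, against 4.63% of all detected genes. With the series matrix values 6 were, against 24.8% of all detected genes.

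Genes of MCL1 protein turnover held 0 genes past 2-fold of 6 detected. The ubiquitin ligase HUWE1 had a log2 ratio of 0.85, the kinase GSK3B 0.81 and the deubiquitinase USP9X −0.78. Deposited signals of HUWE1 were 543.2 with PBS and 591.5 with Me6TREN, and those of GSK3B 1610 and 1785. As for BIRC2, most of these 2 ratios arose in the processing. Over the 7 settings HUWE1 ran from 0.18 to 0.86, GSK3B from 0.20 to 0.87 and USP9X from −1.45 to −0.63. Among partners and substrates of the cIAP proteins, 0 of 8 passed 2-fold. MAP3K14, the kinase that these ligases mark for degradation, had a log2 ratio of 0.998, just under the line. Its deposited signals were 399.9 with PBS and 466.7 with Me6TREN, and its ratio ran from 0.41 to 1.08 over the 7 settings. The adaptor TRAF1 had −0.95. TNFRSF1A, a tumour necrosis factor receptor, was detected on the PBS array alone, with a bound of −0.04.

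Mitochondrial and endoplasmic reticulum partners of BCL2 family proteins had 2 of 13 detected genes at least 2-fold higher and 1 lower. Over all detected genes the shares were 6.74% and 9.94%. BNIP2, which binds BCL2, was the lowest with signals of 3437 and 879.0 and a log2 ratio of −1.65. BNIP1 had 1.52, with 1.55 by its other probe. BAG1, a cochaperone detected on the PBS array alone, had a measured log2 ratio of −1.43 and a bound of −0.31. Read afterwards, the cochaperone BAG3 had 1.27. GAPDH and ACTB, often used as references, had log2 ratios of −0.38 to −0.11 and −0.63 to −0.07 over 3 probes each. Over the 7 settings the GAPDH probes ran from −0.38 to 0.66 and the ACTB probes from −0.63 to 0.67.

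**Figure D4:**
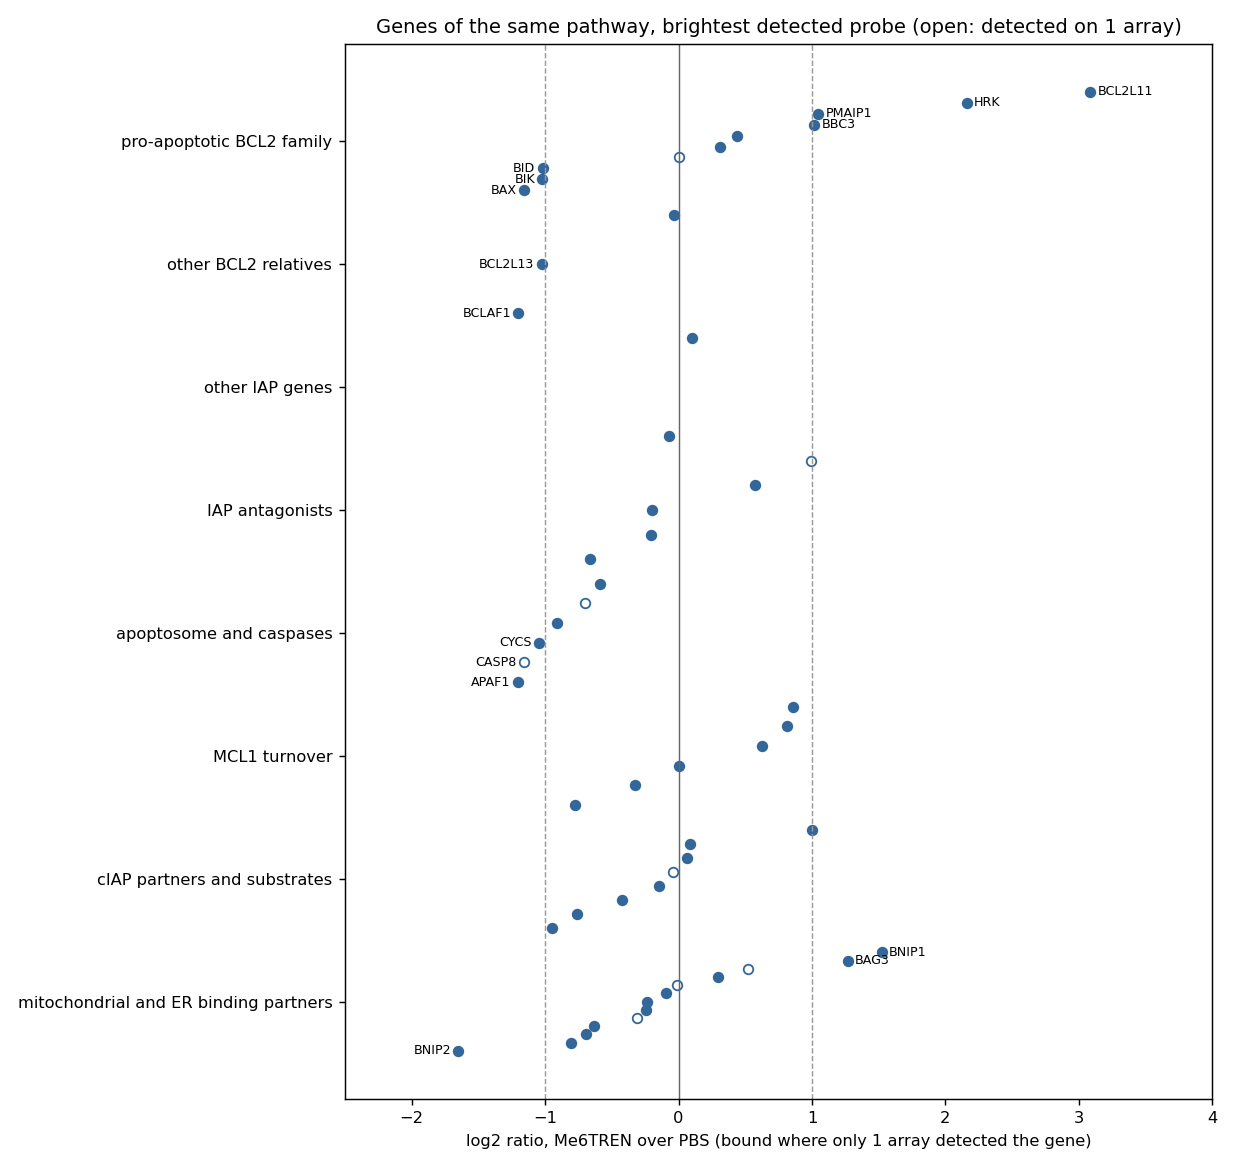
log2 ratio of Me6TREN over PBS for the 53 detected genes of 8 pathway lists, 1 point a gene by its brightest detected probe, drawn as a bound where 1 array alone detected it (open points). Dashed lines mark 2-fold. BCL2L11 at 3.09 and HRK at 2.16 lie farthest right and BNIP2 at −1.65 farthest left.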

How the data were processed

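Me6TREN and PBS samples of 1 array each were grouped by their treatment label. The authors deposited, per the file headers, a linear intensity per probe (the mean over its beads, background included, arrays not normalized), detection p-values and bead numbers. The deposited detection p-values never rose with the signal of their own array. The authors' series matrix holds the same intensity less a constant and times a factor per array, with a common mean of 1297. A straight line through the values had factor 0.951 and constant −228.0 for PBS. For Me6TREN these were 1.05 and −269.5. No source used here names the software.

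Signals were processed with limma 3.58.1 in R 4.3.3 by neqc (offset 16, background inferred from detection p-values, quantile normalization, log2). For a probe detected on 1 array, the ratio is a bound taken against the other array's lowest detected value, or the probe's own value there if higher. Called means at least 2-fold, since 1 array a group allows no test and the number of arrays limits the precision. Genes were named by the platform annotation, and lists by their brightest detected probe. Named are all member probes, up to 3 genes per list with the largest ratios, GAPDH and ACTB. Members and lists were chosen with earlier results of these data known. Promoter windows came from RefSeq. The steps were tested on simulated data.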

Additional observations from a re-analysis of the deposited data

How the results depend on the processing

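No paired analysis was possible because each group holds 1 array, and no array could be left out. The ratios of single probes were compared as measured, so BCL2 ILMN_1801119 enters with −1.39 and not with its bound. Of 72 such ratios under 6 other settings, 59 kept their sign and their side of 2-fold, 6 fell short of it, 4 passed it, 2 turned and 1, BCL2A1 with the series matrix values, was 0. Those that turned were BCL2A1 with median centring (0.095) and BIRC2 ILMN_1768194 with median centring over all probes (−0.061), a setting added after the data were seen. The probes over which the planned median centring ran, those detected on both arrays, were also chosen after values were seen. The number of survival gene probes at least 2-fold higher, 1 as reported, was 0 without background correction, with the series matrix values and with median centring over all probes, and 3 at 1.5-fold. The number at least 2-fold lower, 1 as reported, was 0 without background correction, 4 with the series matrix values or with median centring over all probes, 2 with detection p under 0.05, no filter on detection, or measured ratios in place of bounds, and 3 at 1.5-fold. Without background correction the shares of all detected probes were 3.73% higher and 3.63% lower. They were 3.70% and 21.5% with the series matrix values, and 2.91% and 23.6% with median centring over all probes. At 1.5-fold they were 20.2% and 18.7%. The share lower was 8.36% with detection p under 0.05 and 13.7% with measured ratios. With no filter on detection, 5.17% of all probes were lower. The family's median of −0.22 was −0.11 without background correction, −0.10 with median centring, −0.73 with the series matrix values and −0.78 with median centring over all probes. Pathway genes at least 2-fold higher numbered 6 as reported, 3 without background correction or with the series matrix values, 2 with median centring over all probes and 11 at 1.5-fold. The shares of all detected genes higher in the same order were 6.74%, 3.10% and 3.01%, 2.45% and 16.5%. Those lower numbered 9 as reported, 3 without background correction or with normexp on all probes, 4 with median centring, 17 with the series matrix values, 19 with median centring over all probes, 18 at 1.5-fold and 5 with the mean of detected probes. The shares of all detected genes lower were 9.94%, 4.63% and 6.55%, 8.37%, 24.8%, 27.4%, 21.9% and 8.72%. The cause of each shift was not tested. Signals near the lowest detected value limit what BCL2, BCL2A1, XIAP and the dim BCL2L1 probe ILMN_1742410 can show.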
